A study of Mus musculus with 3 samples.

Results

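The genes described here are 10 named genes of the heat shock system: Hspa1a, Hspa1b, Hspa8, Hsp90aa1, Hsp90ab1, Hspd1, Hspe1, Hsph1, Dnajb1 and Hsf1. They were listed by name and not ranked by a measured value, though earlier results of these data were known. All 10 were found among the 55536 gene entries of the deposited tables. The cells were primary bone-marrow-derived macrophages of the mouse strain C57BL/6J, given a stimulus of 100 ng/mL for 480 min, and polyadenylated RNA was sequenced from 3 biological replicates, 1 library each, here called replicates 1, 2 and 3. The labels name the stimulus as lipid A, the lipid anchor of lipopolysaccharide and a ligand of Toll-like receptor 4, in one place and as lipoprotein A in another. All 3 libraries carry the same treatment, so only levels after stimulation were measured, with no contrast with resting or heated cells.

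Chaperones bind unfolded or unstable proteins, help them fold and keep them from clumping together. The HSP70 proteins bind short exposed stretches of a client protein and release it through a cycle of ATP hydrolysis that J-domain proteins start and nucleotide exchange factors reset. HSP90 proteins act later, on nearly folded clients such as kinases and receptors, while in mitochondria the HSP60 and HSP10 chaperonin folds imported proteins in a closed chamber. When unfolded proteins build up, the transcription factor HSF1 forms trimers, binds repeated short elements in the promoters of chaperone genes and raises their transcription. Macrophages carry abundant chaperones, and HSP90 is known to have clients among the kinases of innate immune signalling.

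Replicates 1, 2 and 3 held 26589042, 34344922 and 48356527 expected counts assigned to genes. Levels are the deposited TPM values, a relative transcript abundance that corrects for gene length and library size, so genes can be compared with each other. All 6 macrophage markers of a fixed list were detected, with Lyz2, the macrophage lysozyme, at 15717, 10767 and 12262 TPM. The 7 neutrophil markers were all highest in replicate 2, where their summed level was 420.5 TPM, against 22.9 and 21.4 TPM in replicates 1 and 3. Summed markers of T cells, B cells, erythroid cells and fibroblasts stayed at or under 1.47 TPM in each library. In RNA from whole cultures, fewer cells of a type and less RNA per cell cannot be told apart. The labels list a separate biosample for each replicate and 1 shared donor entry, so tests between libraries measure only the spread between these samples.

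The promoter letters that HSF1 is known to recognise are shown first for the stress-inducible HSP70 pair, because their upstream regions are nearly the same. Windows of 300 bases, 250 before and 50 from the RefSeq start site (assembly GRCm38.p6, the mm10 genome), were at hand for 6 of the 10 genes: Hspa1a, Hspa1b, Hspd1, Hspe1, Hsph1 and Dnajb1. The heat shock element is built from 5-base units of alternating direction, and the windows were searched for 2 neighbouring units, GAANNTTC or TTCNNGAA, where N is any base. Each motif is its own reverse complement, so a search of 1 strand covers both, and 2 matches in a longer run share 3 bases. The 250 bases upstream of each start are printed 5′ to 3′ with the match in capitals. Both lie on the minus strand, at chr17:34972157-34972406 for Hspa1a and at chr17:34959239-34959488 for Hspa1b. The 30 bases around each match lie outside annotated genes.
Hspa1a: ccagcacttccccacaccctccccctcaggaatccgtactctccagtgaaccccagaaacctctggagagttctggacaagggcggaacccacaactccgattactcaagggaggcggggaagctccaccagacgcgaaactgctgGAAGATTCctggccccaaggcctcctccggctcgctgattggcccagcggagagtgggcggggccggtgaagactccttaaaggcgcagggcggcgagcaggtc
Hspa1b: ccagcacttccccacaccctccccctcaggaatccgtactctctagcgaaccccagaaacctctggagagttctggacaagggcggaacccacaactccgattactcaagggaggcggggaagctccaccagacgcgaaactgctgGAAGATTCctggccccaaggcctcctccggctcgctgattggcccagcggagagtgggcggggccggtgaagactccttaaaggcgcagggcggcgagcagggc
Both runs hold the match GAAGATTC from 104 to 97 bases before the start site. They were equal at 247 of 250 positions (98.8%), and the differences from Hspa1a to Hspa1b, counted from 1 at the 5′ end, were C44T, T47C and T249G. None of these falls inside the match.

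Hspd1 and Hspe1, the subunits of the mitochondrial chaperonin, lie head to head on chromosome 1 and share a single run of elements. It spans 18 bases with 4 units in a row at chr1:55088059-55088076. This is 89 to 72 bases before the Hspe1 start and 144 to 127 bases before 1 of the 2 RefSeq starts of Hspd1. The annotation places it in a UTR exon of Hspd1. The same 30 bases are printed as read for each gene, with the run in capitals, to show that 1 stretch of DNA lies upstream of a start of both. The last line gives 30 bases shortly after a start of Hsph1, whose 13-base run holds 3 units and lies in a UTR exon of Hsph1, at chr5:149636288-149636300 on the minus strand.
Hspe1 (plus strand): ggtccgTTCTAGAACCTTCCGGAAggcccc
Hspd1 (minus strand): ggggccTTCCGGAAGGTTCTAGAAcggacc
Hsph1 (minus strand): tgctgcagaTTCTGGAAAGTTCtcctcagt
Among all 32851 windows, 15.1% held 2 neighbouring units, 0.603% held 3 and 8 windows (0.0244%) held 4. The windows of Hspd1 and Hspe1, which cover the same DNA, are 2 of these 8. Of the 6 genes with a window, 5 held 2 neighbouring units, 3 held 3 units (Hspd1, Hspe1 and Hsph1), and Dnajb1 held no match in either of its 2 windows. By comparison, 19 of 77 other chaperone genes with a window (24.7%) and 17.0% of all 27025 genes with a window held 2 neighbouring units. A match is a string of letters and not a bound site, and no binding data are part of the series. The search took exact letters only, so imperfect units were not counted. A window without a match may therefore still hold an element, and a marked run may be part of a longer one.

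**Figure D1:**
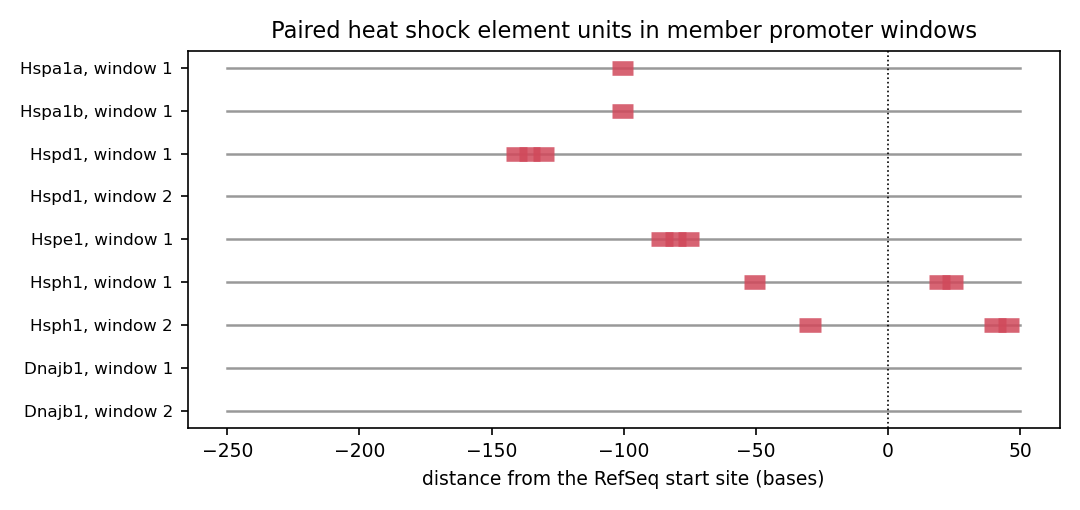
Matches of 2 neighbouring heat shock element units (red bars) along the RefSeq promoter windows of the 6 genes with a window. The x axis is the distance from the start site in bases and each grey line is 1 window. Hspa1a and Hspa1b have 1 match at the same distance, Hspd1 and Hspe1 share 1 run of 3 overlapping matches, Hsph1 has 3 matches in both of its windows and Dnajb1 has none.

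The 10 genes spanned a 457-fold range of mean level, from Hspa8 at 1919.6 TPM down to Hsf1 at 4.20 TPM. All 10 reached 1 TPM in every library and counted as detected, as did 17.9% of all gene entries. Their summed level was 2488, 3322 and 2409 TPM in replicates 1, 2 and 3, or 2739.6 ± 506 TPM (SD, n = 3). That is 0.249%, 0.332% and 0.241% of the transcript pool. Hspa8 alone made up 70.2% ± 1.39 (SD, n = 3) of this sum, and its share differed little between libraries.

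Hsf1 (ENSMUSG00000022556.11, chr15:76477422-76501913, plus strand) encodes the master transcription factor of the heat shock response. It was the lowest of the 10 genes, at 3.46, 5.37 and 3.78 TPM, or 4.20 ± 1.02 TPM (SD, n = 3). It ranked 7906th by mean TPM, and between 102 and 207 expected counts per library stood behind these values. Replicate 2 was highest, and replicates 1 and 3 lay close together. In the first of the 2 deposited quantifications, Hsf1 also had the smallest share on its leading transcript. Of its 16 annotated transcripts, the protein-coding Hsf1-205 held 55.4% ± 2.06 (SD, n = 3) of its TPM, and all protein-coding transcripts together held 74.5%. Transcripts annotated as targets of nonsense-mediated decay, the pathway that destroys RNAs with an early stop codon, held 21.01%, mostly as Hsf1-213. With so few counts, the minor transcripts came and went between libraries: Hsf1-201 was put at 0%, 11.1% and 7.17%.

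Hspa8 (ENSMUSG00000015656.17, chr9:40800984-40810087, plus strand) encodes HSC70, the constitutive cytosolic HSP70. Its level was 1760.1, 2281 and 1718 TPM, or 1919.6 ± 314 TPM (SD, n = 3), which placed it 66th among all gene entries. Replicate 2 stood apart at the top, and replicates 1 and 3 differed by far less. Between 61852 and 109828 expected counts per library lay behind this level. Pseudogenes are a concern for this gene, since 10 of them share at least 90% identity with it over at least 500 bases. Together they were given 0.355% as many counts as Hspa8 itself. The small nucleolar RNAs Snord14c, Snord14d and Snord14e lie within the Hspa8 gene on the same strand.

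Hspa1a (ENSMUSG00000091971.3, chr17:34969190-34972156) and Hspa1b (ENSMUSG00000090877.3, chr17:34956436-34959238) are the stress-inducible HSP70 genes, each a single exon on the minus strand, and their starts lie 12918 bases apart. Hspa1a was at 24.4, 38.1 and 17.2 TPM, or 26.6 ± 10.6 TPM (SD, n = 3). Hspa1b was at 18.4, 30.7 and 11.5 TPM, or 20.2 ± 9.68 TPM (SD, n = 3). Both ran in the order replicate 2, replicate 1, replicate 3, and they had the widest spread of the 10 genes, 2.22-fold and 2.66-fold from lowest to highest. The log2 ratio of Hspa1b to Hspa1a was -0.40, -0.31 and -0.57, a mean of -0.43 ± 0.13 (SD, n = 3), so Hspa1a was the higher copy in 3 of 3 libraries. The copies are 99.2% identical over 2201 bases, and the counts were split between them by a model. The model's own uncertainty in that split, deposited by the authors as an SD, was at most 2.04% of either gene's count, and the sum of both genes does not depend on the split. That sum was 42.9, 68.8 and 28.7 TPM, a 2.40-fold spread. Gm20481 overlaps Hspa1a on the opposite strand over 2225 bases and was listed with 0 counts in each library. Whether the counting used strand is not given in the sources used here, so reads of the overlap cannot be assigned by strand.

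Transcripts of the constitutive HSP70 far outnumbered those of the inducible pair. The level of Hspa8 was 41.1, 33.2 and 59.8 times the sum of Hspa1a and Hspa1b, a mean log2 ratio of 5.43 ± 0.43 (SD, n = 3). The smallest ratio was in replicate 2, where the inducible genes were highest, and the largest in replicate 3. Set beside Hspa5, the HSP70 of the endoplasmic reticulum, Hspa8 was 2.63, 3.57 and 2.63 times as high.

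Dnajb1 and Hsph1 encode partners of HSP70. Dnajb1 (ENSMUSG00000005483.10, chr8:83608193-83612653, plus strand) encodes HSP40, a J-domain protein that delivers clients and starts ATP hydrolysis. Its level was 19.7, 28.1 and 22.5 TPM, or 23.4 ± 4.29 TPM (SD, n = 3). Hsph1 (ENSMUSG00000029657.15, chr5:149614287-149636376, minus strand) encodes HSP110, a nucleotide exchange factor for HSP70 that is itself a distant HSP70 relative. It stood at 8.15, 12.7 and 7.83 TPM, or 9.55 ± 2.71 TPM (SD, n = 3). Both were highest in replicate 2, and for Hsph1 the other libraries were nearly equal. Hspa8 was 76.5 to 89.4 times as high as Dnajb1 and 180.0 to 219 times as high as Hsph1. The log2 ratio of Dnajb1 to Hspa8, -6.35 ± 0.11 (SD, n = 3), had the smallest SD of the 8 pair ratios examined in the first quantification, but not in the second, where its SD was 0.22.

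Hsp90ab1 and Hsp90aa1 encode the cytosolic HSP90 proteins, beta and alpha, of which alpha is the more stress-inducible. Hsp90ab1 (ENSMUSG00000023944.14, chr17:45567775-45573271, minus strand) was at 424.8, 655.5 and 424.6 TPM, or 502 ± 133 TPM (SD, n = 3). Replicates 1 and 3 were almost equal, and replicate 2 lay well above them. Hsp90aa1 (ENSMUSG00000021270.13, chr12:110690605-110702728, minus strand) was at 121, 111 and 73.6 TPM, or 102 ± 25.0 TPM (SD, n = 3). Alone among the 10 genes it was not highest in replicate 2. Replicate 1 led and replicate 3 was lowest. The lead over replicate 2 was small, 120.9 against 111.1 TPM. In the first quantification Hsp90aa1-205, a short transcript annotated as keeping an intron, held 12.5 TPM in replicate 1 and 1.2 TPM in replicate 2. Hsp90ab1 exceeded Hsp90aa1 in 3 of 3 libraries, by 3.51, 5.90 and 5.77 times, a mean log2 ratio of 2.30 ± 0.42 (SD, n = 3). The ratio in replicate 1 lay apart from the others. Hsp90b1, the HSP90 of the endoplasmic reticulum, was below Hsp90ab1 by a log2 ratio of -1.47 ± 0.31 (SD, n = 3).

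Hspd1 and Hspe1 encode HSP60 and its lid HSP10, which work together as the mitochondrial chaperonin. Hspd1 (ENSMUSG00000025980.14, chr1:55077835-55088243, minus strand) was at 35.7, 60.8 and 41.5 TPM, or 46.0 ± 13.1 TPM (SD, n = 3). Hspe1 (ENSMUSG00000073676.4, chr1:55088132-55091307, plus strand) was at 72.4, 98.7 and 88.5 TPM, or 86.5 ± 13.3 TPM (SD, n = 3). Replicate 2 was highest and replicate 1 lowest for both genes. Hspe1 was 2.03, 1.62 and 2.13 times as high as Hspd1, a mean log2 ratio of 0.94 ± 0.21 (SD, n = 3). The genes overlap by 112 bases on opposite strands, where reads cannot be told apart without strand.

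**Figure D2:**
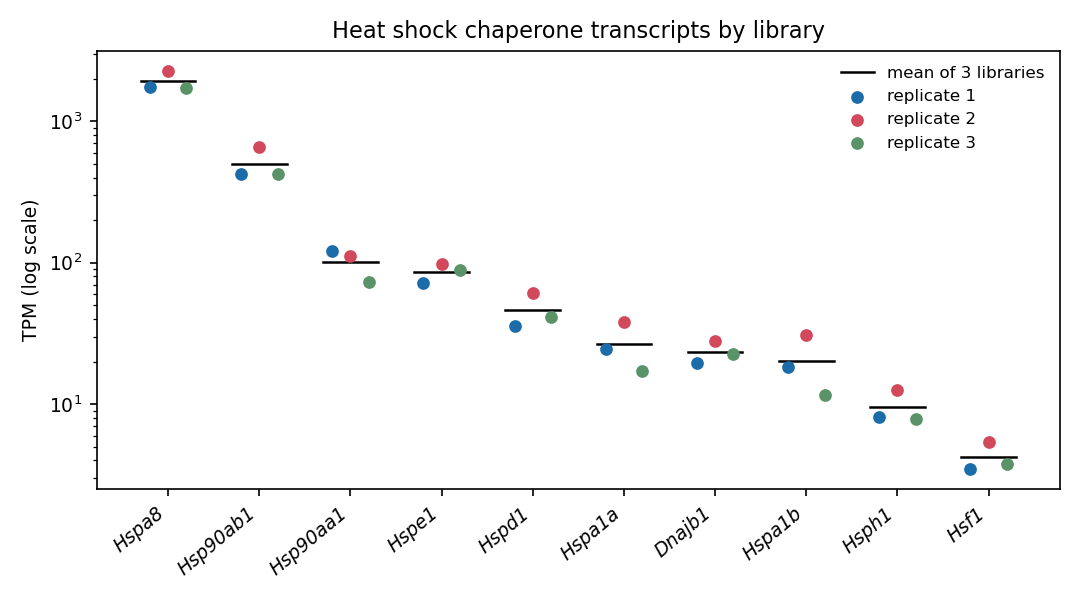
TPM of the 10 genes (y axis, log scale) in replicates 1, 2 and 3 (coloured points), with the mean of the 3 libraries as a black line, ordered by that mean along the x axis. Hspa8 and Hsp90ab1 lie far above the other 8 genes, and replicate 2 is the highest point for every gene except Hsp90aa1.

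In the order of mean level, 6 of the 9 neighbouring pairs were apart, meaning that all 3 libraries agreed on the order and the mean log2 difference exceeded 2 SD. Hsp90aa1 and Hspe1 were not apart, nor were Hspa1a and Dnajb1, nor Dnajb1 and Hspa1b. The order within these pairs therefore does not stand beyond the spread between libraries. An exact test on 3 paired values cannot go below a two-sided p of 0.25, so no p is given for these pairs.

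The level of replicate 2 was examined after its values had been seen. It was the highest library for 9 of the 10 genes on the TPM scale, where 45.2% of the 12414 genes averaging at least 10 counts were highest in that library. With CPM (counts scaled to library size) adjusted by TMM, a method that corrects for library composition, it was again highest for 9 of 10, against 38.5% of all genes. The exception, Hsp90aa1, was nearly level there, at 212.3 CPM in replicate 1 and 209.9 CPM in replicate 2. The lowest library was replicate 3 for 6 genes and replicate 1 for the other 4 on the TPM scale. The 7 neutrophil markers given above were highest in replicate 2 as well, and their part in the result was not tested. Ribosomal RNA and mitochondrially encoded genes held 6.51%, 6.87% and 11.0% of TPM in replicates 1, 2 and 3. Without them the count stayed at 9 of 10, beside 41.3% of all genes.

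Of the 10 genes, 7 differed by at least 1.5-fold between their highest and lowest library, beside 42.1% of all genes averaging at least 10 counts. The median spread was 1.59-fold for the 10 genes and 1.41-fold for all genes. The 3 under 1.5-fold were Hspa8, Hspe1 and Dnajb1. Among genes averaging at least 100 counts, as each member does, the share 1.5-fold apart was 30.3%, and among all detected genes it was 33.0% with a median spread of 1.34-fold. Without replicate 2 the count was 2 of 10 (Hsp90aa1 and Hspa1b), beside 18.2% of all genes, so the share of all genes dropped as well. With TMM-scaled CPM the count was 4 of 10, namely Hspa1a, Hspa1b, Hsp90aa1 and Hspd1, beside 37.9% of all genes on that scale.

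All 10 genes differed between libraries beyond counting error by a chi-square test on counts scaled with edgeR's TMM factors, with Benjamini-Hochberg adjustment over all genes tested. The weakest were Hsf1 with an adjusted p of 0.0018 and Hspe1 with 0.000367, and without replicate 2 the count was 7 of 10, beside 42.7% of all genes. At these depths 70.9% of all genes passed this test, so the count says little about chaperones. The biological coefficient of variation from edgeR estimates the spread between libraries beyond counting. Its median was 20.4% for the 10 genes and 20.5% for all genes. With 3 libraries, each gene's estimate is drawn toward those of other genes, so nearly equal medians are partly built in. The all-gene median includes genes down to an average of 10 counts.

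**Figure D3:**
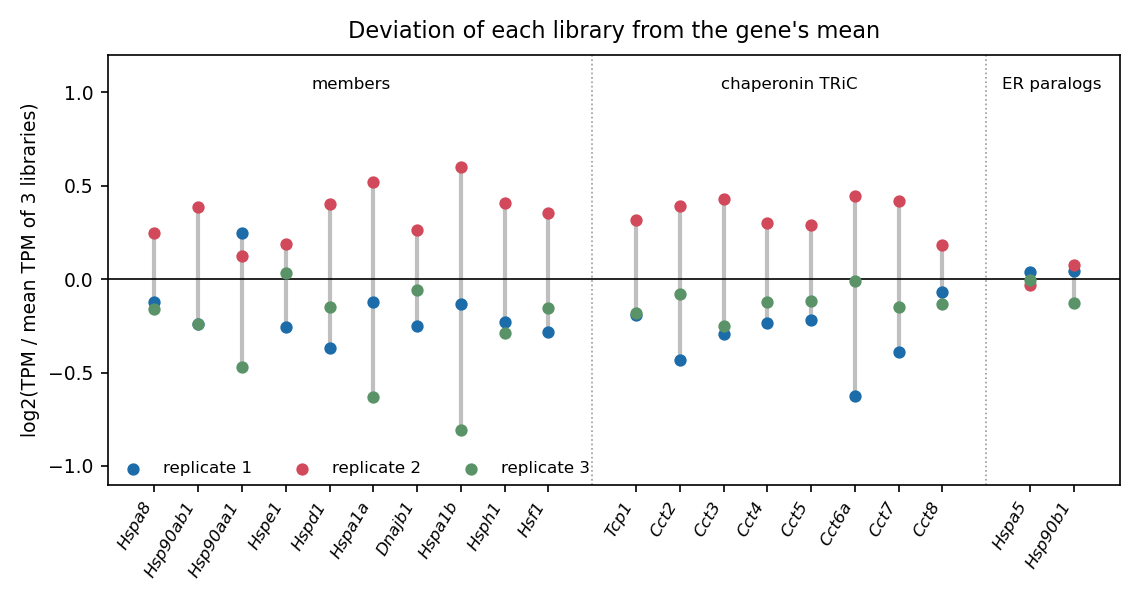
Each library's TPM relative to the gene's mean over 3 libraries (y axis, log2 scale) for the 10 genes, the 8 subunits of the cytosolic chaperonin TRiC and the endoplasmic reticulum paralogs Hspa5 and Hsp90b1. Points are replicates and grey bars join the lowest to the highest. Replicate 2 leads for 9 of the 10 genes and for 8 of 8 TRiC subunits, while the points of Hspa5 and Hsp90b1 lie close together.

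Transcript tables showed which isoform carried each gene. A second quantification of these libraries, which used no alignment file, chose the same leading transcript for 9 of the 10 genes. Hspa1a and Hspa1b have 1 transcript each. Single transcripts also dominated Dnajb1 (Dnajb1-201, 99.5%), Hspe1 (Hspe1-201, 99.4%) and Hsp90ab1 (Hsp90ab1-201, 98.1%), and Hspd1-201 held 82.4% ± 5.64 (SD, n = 3) of Hspd1.

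The exception was Hsp90aa1. In the first quantification Hsp90aa1-202, of 3281 bases, held 58.0%, 95.7% and 91.1% of its TPM in replicates 1, 2 and 3. In the second it held 17.7%, 45.5% and 48.2%, and Hsp90aa1-201, of 2852 bases, led with 51.0% ± 2.99 (SD, n = 3). Replicate 1 had the lowest share of Hsp90aa1-202 in both. Hsp90aa1-205, of 487 bases and annotated as keeping an intron, was put at 12.5, 1.2 and 4.5 TPM in the first. In replicate 1 of the second it held 30.7%. The level of the whole gene moved little, from 102 to 95.2 TPM. Hspa8-201 led Hspa8 in both, with 68.5% ± 2.76 and 89.2% ± 15.9 (SD, n = 3). Another coding transcript, Hspa8-202, was given 30.8% in the first and 6.90% in the second. Hsph1-211 led Hsph1 on average, with 75.6% ± 12.1 and 53.8% ± 34.8 (SD, n = 3), but in replicate 1 of the second quantification it held 13.6%. Isoform shares of Hspa8, Hsp90aa1 and Hsph1 therefore depended on the method. Hsf1-205 was given 55.4% ± 2.06 and 54.3% ± 7.12 (SD, n = 3) of Hsf1, but 55.9% and 46.3% in replicate 1.

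**Figure D4:**
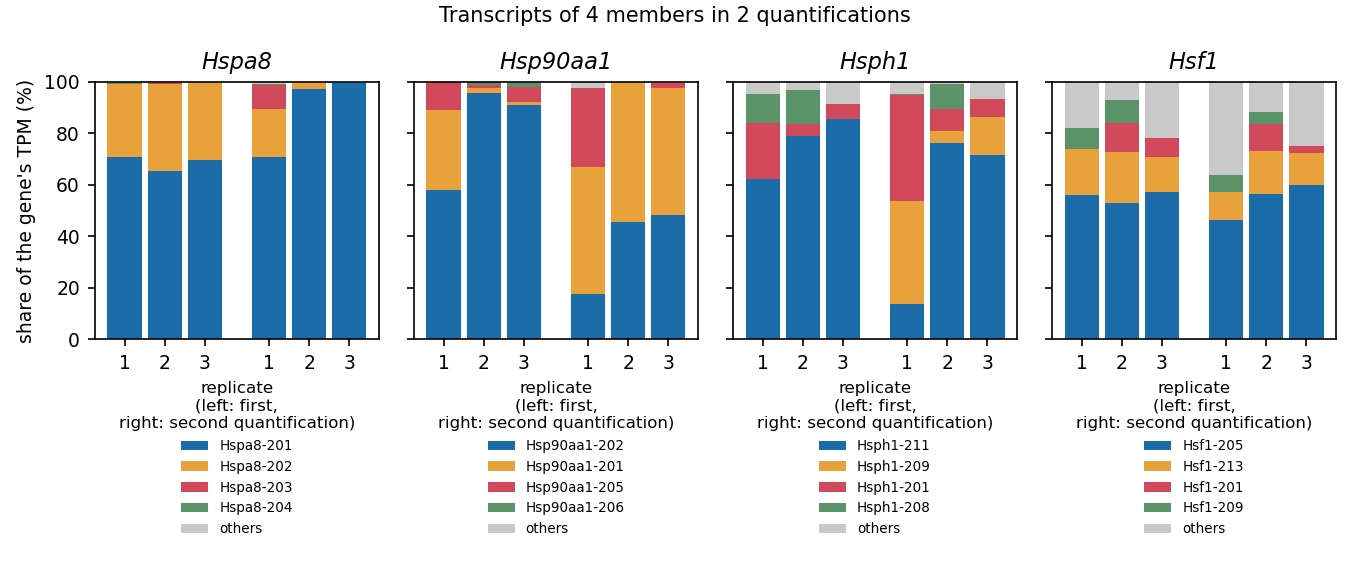
Share of each gene's TPM (y axis, percent) on its 4 leading transcripts (colours, with the rest in grey) for Hspa8, Hsp90aa1, Hsph1 and Hsf1. Within each panel the left 3 bars are the replicates in the first quantification and the right 3 bars the same replicates in the second. Hsp90aa1 changes its leading transcript from Hsp90aa1-202 to Hsp90aa1-201, while Hsf1-205 stays near 55% on average.

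Around the 10 genes, 95 other chaperone and proteostasis genes in 11 roles gave the setting. Of these, 77 (81.1%) were detected, beside 17.9% of all gene entries. Of the 81 averaging at least 10 counts, 24 (29.6%) were at least 1.5-fold apart, beside 42.1% of all genes with that average. The share was 30.3% among all genes averaging at least 100 counts and 33.0% among all detected genes. Replicate 2 was highest for 57 of the 81 (70.4%, beside 45.2% of all genes), and for 54 with TMM scaling, beside 38.5%. The named genes below are the 2 detected genes with the highest mean level and the gene with the lowest in each role.

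Among the relatives of HSP70, 9 of 11 were detected. Hspa5, or BiP, the HSP70 of the endoplasmic reticulum, stood at 670.0, 638 and 652 TPM, so it was nearly level across libraries. Hspa4, an HSP110 relative, followed at 41.9 ± 7.04 TPM (SD, n = 3), and Hspa12b was lowest at 0.05 TPM. Both HSP90 relatives were detected, with Hsp90b1, or GRP94, at 183, 187.5 and 163 TPM, and Trap1, the mitochondrial HSP90, at 27.0 ± 9.76 TPM (SD, n = 3).

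J-domain proteins were the most numerous role, with 17 of 18 detected. Dnaja1 (431 ± 73.1 TPM, SD, n = 3) and Dnaja2 (200.5 ± 19.4 TPM, SD, n = 3) led and stood far above Dnajb1, while Dnaja4 was at 0.08 TPM. Of the exchange factors, 8 of 10 were detected. Bag1, at 188 ± 1.78 TPM (SD, n = 3), was higher than Hsph1 and varied little, Bag6 followed at 61.55 ± 3.71 TPM (SD, n = 3), and Bag2 was lowest at 0.437 TPM. Of the HSP90 co-chaperones, 14 of 16 were detected. Ahsa1, which speeds up the ATPase of HSP90, was at 248 ± 25.1 TPM and Cdc37, which brings kinases to HSP90, at 127 ± 10.1 TPM (SD, n = 3). Unc45b, known as a myosin chaperone of muscle, was at 0.0367 TPM.

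The cytosolic chaperonin TRiC, which folds actin and tubulin, had all 8 subunits detected and in a narrow band of levels. They ran from Cct6a at 62.5 ± 22.2 TPM to Cct5 at 79.8 ± 15.5 and Cct2 at 83.2 ± 24.1 TPM (SD, n = 3). Their summed level was 455, 711 and 511 TPM. On both scales 8 of 8 were highest in replicate 2, beside 45.2% of all genes by TPM and 38.5% with TMM scaling. Roles differed in this: of the J-domain genes averaging at least 10 counts, 8 of 17 were highest there by TPM and 7 of 17 with TMM scaling. Of the ubiquitin genes, 0 of 2 were. Prefoldin, which hands clients to TRiC, had 6 of 6 subunits detected. Pfdn5 led at 190.3 ± 17.0 TPM, followed by Pfdn1 at 37.0 ± 8.87 TPM, and Pfdn4 was lowest at 14.4 ± 6.25 TPM (SD, n = 3).

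Small heat shock proteins hold unfolded proteins without using ATP. The summed level of the 10 listed genes was 9.74 ± 2.64 TPM (SD, n = 3). Of these, 2 of 10 were detected, close to the 17.9% of all gene entries. They were Hspb11 at 7.09 ± 1.86 TPM and Hspb6 at 1.57 ± 0.248 TPM (SD, n = 3). Hspb11 is better known as a subunit of intraflagellar transport. Hspb2, Hspb3 and Hspb7 had 0 counts in every library. In the library where the limit is highest, 3 counts would correspond to 0.427, 0.331 and 0.0689 TPM for these genes, a limit that covers counting error only.

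Of the other heat shock factors, Hsf2 was at 4.63 ± 0.617 TPM (SD, n = 3), close to Hsf1. Hsf3 had 0 counts, with a limit of 0.114 TPM, and Hsbp1, a small protein that binds the HSF1 trimer, was at 177 ± 7.17 TPM (SD, n = 3). All 7 mitochondrial proteases and disaggregases were detected, from Clpp at 4.54 ± 1.94 TPM to Htra2 at 25.8 ± 5.40 and Yme1l1 at 41.9 ± 8.33 TPM (SD, n = 3). The polyubiquitin gene Ubb stood at 1373 ± 178 TPM (SD, n = 3) and was highest in replicate 1.

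**Figure D5:**
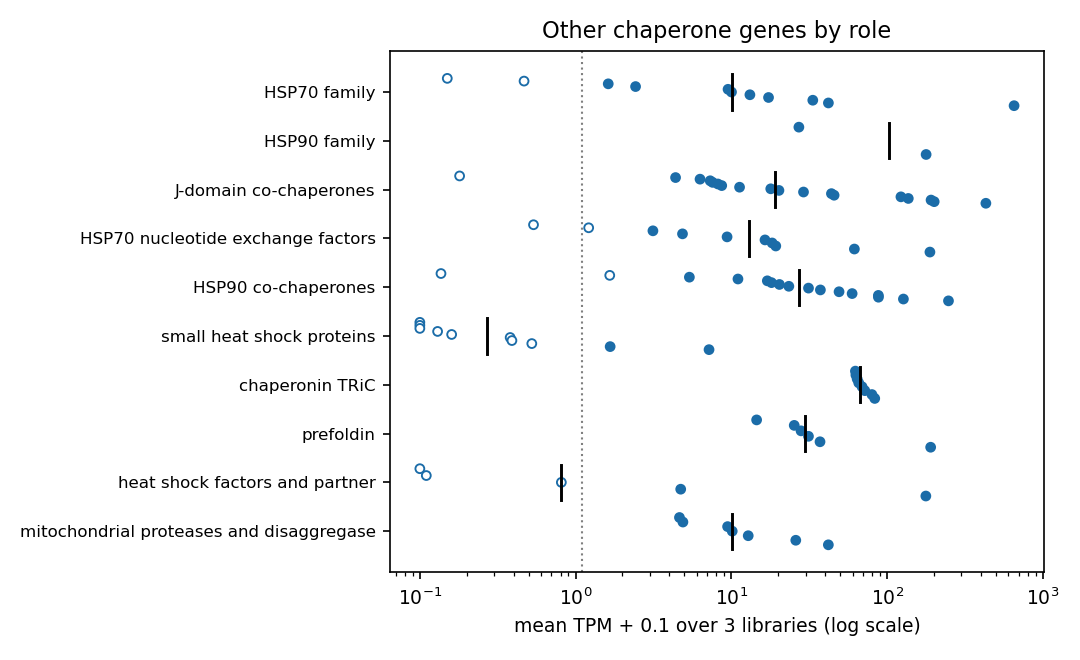
Mean TPM plus 0.1 over 3 libraries (x axis, log scale) of the other chaperone and proteostasis genes by role (y axis), ubiquitin genes left out. Filled points were detected at 1 TPM in every library, open points were not, black bars mark the median of each role and the dotted line marks 1 TPM. The 8 TRiC subunits form a tight cluster, and most small heat shock proteins lie left of the dotted line.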

How the data were processed

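Polyadenylated RNA of 3 libraries of 1 group was analysed. Per the deposited readme, reads were quantified on mm10 with GENCODE annotation M21, with programs and aligner not given in the sources used here. The authors' gene and transcript tables, per the file headers, hold expected counts assigned by a model, TPM, each transcript's percent of its gene's TPM, and the SD of that assignment. A second deposited transcript quantification, made without an alignment, holds estimated counts and TPM, which were summed per gene. Deposited effective lengths, in bases, were used only for the limits of genes without counts.

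Entries that named no gene were excluded. Expected counts were rounded for the chi-square test (2 degrees of freedom, genes averaging at least 10 counts), which was tested on simulated data. Pair ratios are log2(TPM + 0.1), and a log2 ratio on that scale slightly understates differences of low genes. TMM factors and dispersions (intercept only) came from edgeR 4.0.16, with limma 3.58.1 and R 4.3.3, and size factors of an alternative from DESeq2 1.42.0. Near-identical copies were found with blastn 2.17.0 (at least 90% identity over at least 500 bases). Other steps used Python 3.11.15 with pandas 2.3.3, numpy 2.4.6, matplotlib 3.10.9 and scipy 1.17.1.

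Members and lists were chosen with earlier results of these data known. The rule for named genes takes all 10 members, the genes of each pair ratio and, of each role, the 2 detected genes with the highest and the gene with the lowest mean TPM. A gene that meets this rule is not reported here. No gene is named for likeness of pattern, since 3 libraries are too few for a correlation. Promoter windows are from RefSeq (GRCm38.p6). Planned protein features were not analysed here. Alternatives covered the quantification, scaling, filters, thresholds, pseudocount and leaving out each replicate.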

Additional observations from a re-analysis of the deposited data

How the results depend on the processing

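Across the alternatives to sums, ratios and counts, 86 values stayed within 1 SD of the reported value or, for counts, within 1.5 times it. Another 3 did not. For the summed level and the ratios, leaving out 1 of 3 libraries cannot move the mean by 1 SD. Those values were therefore bound to stay within the limit. Counts of genes detected in every library cannot fall when a library is left out or the TPM threshold is lowered. With all 10 members detected, their count could not rise either, so these alternatives could not change it. The second quantification put the summed level of the 10 genes at 2183 TPM in place of 2739.6. With TMM-scaled CPM, 4 members were at least 1.5-fold apart in place of 7, and with DESeq2 size factors 5 were, each beside 37.9% of all genes. The second quantification gave 9, beside 50.1%. Leaving out each replicate in turn gave 2448 to 2905 TPM for the summed level and 2 to 6 members 1.5-fold apart, lowest without replicate 2, while the share of all genes was 23.6%, 18.2% and 32.1% without replicates 1, 2 and 3. The same omissions gave 7 to 9 members varying beyond counting (all genes 56.5%, 42.7% and 61.1%), 10 detected members each time and 77 to 79 detected genes of the wider lists. The leave-one-out log2 ratio of Hspa1b to Hspa1a ranged from -0.49 to -0.36, that of Hsp90ab1 to Hsp90aa1 from 2.17 to 2.54 and that of Hspe1 to Hspd1 from 0.86 to 1.05. For single genes, the second quantification gave 1503 TPM for Hspa8, 67.3 TPM for Hspe1 and 19.0 TPM for Dnajb1, each lower by more than 1 SD. The cause was not tested. The count of 9 members highest in replicate 2 was the same under 4 alternatives chosen after seeing the data. The share of all genes highest there ranged from 38.5% (TMM-scaled CPM) to 61.4% (second quantification), beside 45.2% as reported. In the second quantification the 9 of 10 members therefore stood out less from all genes. No paired analysis was possible because all libraries belong to 1 group. Hsf1, with 102 to 207 counts, is the member that depth limits most.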
